A study of Rattus norvegicus with 18 samples.

Results

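The cytosolic ribosomal protein genes were followed in the hippocampus of rats from a study of learning after exposure to alcohol before birth. They were taken by symbol: a gene was a member if a probe set (the group of short probes that reads 1 transcript) carried Rpsa, a symbol starting with Rplp, or Rpl or Rps and a digit as its only symbol in the platform annotation, Rps6k kinases left out. This gave 44 of 10412 measured genes, 30 of the large and 14 of the small ribosomal subunit, on 50 probe sets, and each gene was read from its brightest probe set. Of these, 40 passed a filter on low signal (28 large, 12 small), and Rpl30, Rpl3l, Rps27l and Rps4y2 did not. A further 34 probe sets listed several symbols of which at least 1 was ribosomal. They are given only as counts, so that the stalk proteins Rplp1 and Rplp2 and the ubiquitin fusion Rps27a have no value of their own here.

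Each sample of total RNA was read on 1 Affymetrix array. The diets were alcohol, isocaloric (a diet matched in calories) and control, and within each diet samples were labelled either as CFC trained or as naive, CFC not being spelled out in the labels. The alcohol diet had 4 trained and 4 naive arrays, the isocaloric diet 4 trained and 2 naive, and the control diet 2 of each. Strain, age, litter, sex and the time from training to collection are not given in the sources used here. Nor do the labels tell whether 2 samples of a group were 2 animals, and p-values here measure only the scatter among samples, part of which may be technical.

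The cytosolic ribosome makes all proteins encoded in the nucleus. Its small subunit decodes the mRNA and its large subunit joins the amino acids. Most mRNAs for its proteins start with a run of pyrimidines, the 5′ TOP tract, through which the mTORC1 kinase pathway controls their translation together. In neurons, protein synthesis on ribosomes in the cell body and in dendrites is needed for lasting forms of memory.

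The start sites show the letters that the family is known for. Among the 39 members with a RefSeq promoter, 25 (64.1%) had an unbroken run of at least 8 C or T overlapping the 10 bases on either side of the annotated start, against 13.2% of 33465 RefSeq promoters of the same length. In windows of 250 bases before to 50 bases after the start, the letters CCGGAAG (an ETS family motif) were in 23.1% of members and 8.75% of all promoters, AAGATGGC (a YY1 motif) in 10.3% and 3.17%, and TATAAA in 15.4% and 14.2%, both strands searched and overlaps allowed. A match describes the letters and is not a measured site. The stretches below run from 30 bases before the annotated start to 20 bases from it on, 5′ to 3′ on the gene's strand, in the rat assembly GRCr8. They are those of the members on which the comparisons turned, with a run of at least 8 pyrimidines at the start in capitals: Rpsa at chr8:128728849-128728898 (+), Rplp0 at chr12:46718371-46718420 (-), Rpl13a at chr1:104748894-104748943 (-), Rpl37a at chr9:81748061-81748110 (+), Rps15 at chr7:10068096-10068145 (-), Rps24 at chr16:96487-96536 (+) and Rpl24 at chr11:58128386-58128435 (-), the last with no such run.
Rpsa: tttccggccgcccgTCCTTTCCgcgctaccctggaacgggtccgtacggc
Rplp0: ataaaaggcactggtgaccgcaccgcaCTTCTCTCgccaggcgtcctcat
Rpl13a: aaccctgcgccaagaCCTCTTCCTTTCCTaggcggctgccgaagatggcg
Rpl37a: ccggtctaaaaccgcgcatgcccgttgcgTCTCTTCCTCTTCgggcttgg
Rps15: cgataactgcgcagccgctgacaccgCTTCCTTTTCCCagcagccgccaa
Rps24: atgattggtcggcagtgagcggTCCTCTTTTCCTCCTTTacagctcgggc
Rpl24: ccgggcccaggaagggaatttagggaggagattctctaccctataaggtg
The longest run reaching the 10 bases on either side of the start was 14 bases in Rpl13a, 17 in Rps24 and 13 in Rpl37a. It was 8 in both Rpsa and Rplp0. The runs of Rpsa and Rpl13a lie wholly before the annotated start, and those of Rplp0, Rpl37a, Rps15 and Rps24 span it. In Rpl24 the longest run was 6.

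The 18 arrays summed to signals of 2.92e+06 to 3.13e+06, and all pairs correlated at 0.949 or above. The 7 hippocampal marker genes measured all passed the filter. One array stood apart in the members: on control naive replicate 2, 39 of 40 members lay above their mean over the other 17 arrays, with a median difference of 0.55 on the log2 scale, against -0.03 over all 9520 probe sets tested. This array was the highest of the 18 for 37 members (92.5%), and for 17.2% of all probe sets. It was also the lowest for 20.5% of all probe sets, so it stood apart beyond the members too. Every other array was the highest for at most 8.89% and the lowest for at most 11.1%. The excess on control naive 2 was 1.25 for Rpl13a, 0.92 for Rps24, 0.91 for Rps15 and 0.87 for Rps3. Only Rpl37a lay below its mean there, by -0.07, and Rps9 and Rps28 were above it but had their highest signal on other arrays. The same array had the highest summed signal of the microglial (2083), oligodendrocyte (15438) and astrocyte (17152) marker lists and the lowest of the neuronal list (10297). The part of cell makeup in the member signals was not tested. In whole tissue, more cells rich in these mRNAs and more RNA per cell cannot be told apart. Member counts and calls against the control diet are therefore also given without this array. Differences below are of log2 signal, fitted over all 18 arrays with limma, and a gene passed where its p-value, adjusted over the 9520 probe sets by Benjamini-Hochberg, was under 0.05.

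**Figure D1:**
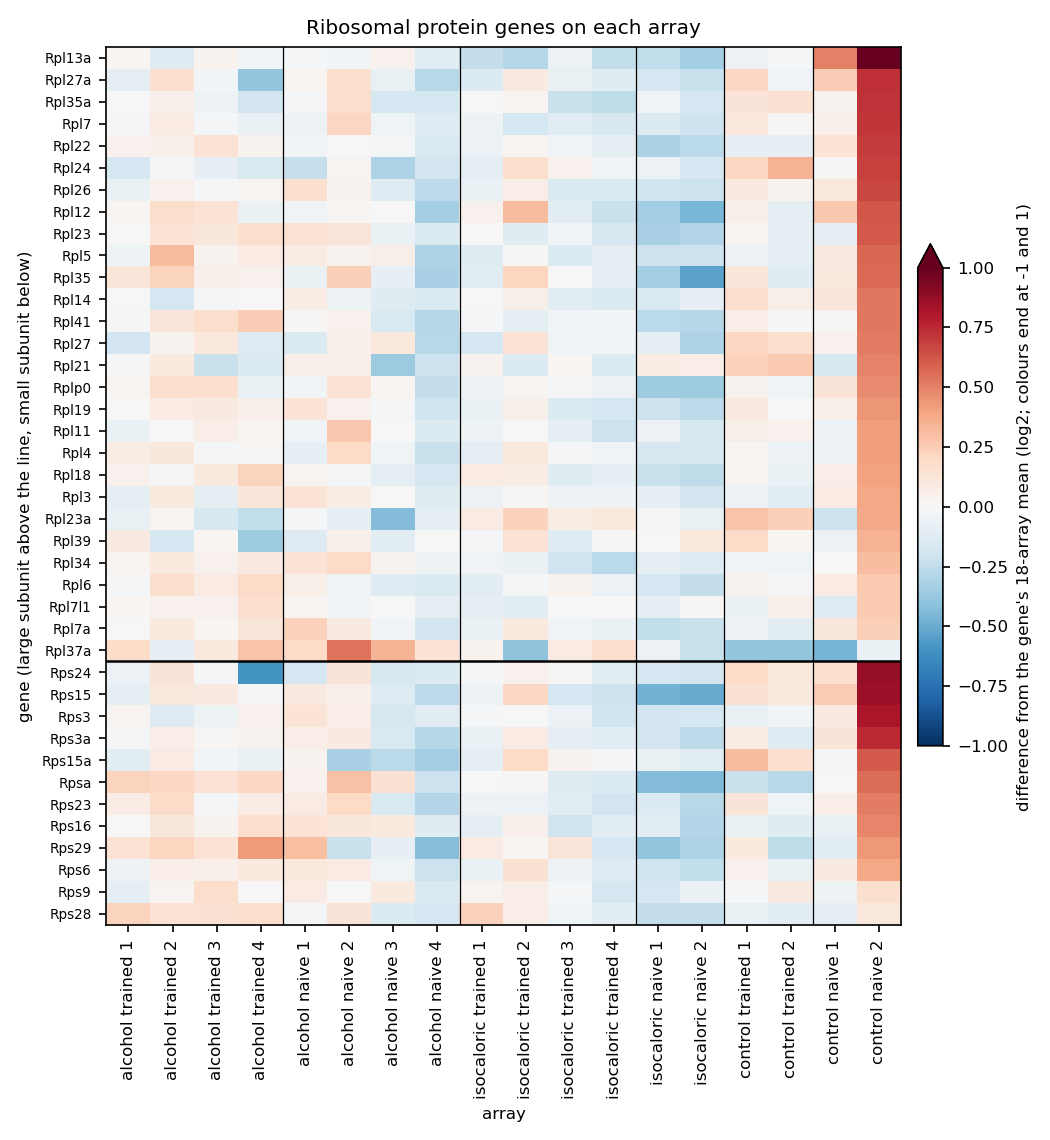
Signal of the 40 members (rows, large subunit above the line and small subunit below) on the 18 arrays (columns), as the log2 difference from each gene's mean over all arrays, with colours ending at -1 and 1. Control naive 2 is red for all but Rpl37a, and most members are blue on isocaloric naive 1 and 2.

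Both subunits were highest in control naive and lowest in isocaloric naive rats. Relative to the 18-array mean of each gene, the large-subunit members averaged 0.50 and the small-subunit members 0.55 (log2) on control naive 2. They averaged 0.04 and 0.04 on control naive 1. Thus the control naive group mean of 0.27 (SD 0.33, n = 2) for the large subunit and 0.29 (SD 0.36) for the small subunit was set by 1 of its 2 arrays. The isocaloric naive arrays were the lowest group, at -0.16 and -0.21 for the large subunit and -0.23 and -0.26 for the small subunit. On isocaloric naive 2, 16 of 40 members had their lowest signal of all, beside 5.11% of all probe sets. Alcohol trained arrays averaged 0.02 (SD 0.03, n = 4) for the large and 0.06 (SD 0.03) for the small subunit. Alcohol naive arrays spread from -0.17 to 0.09 and from -0.23 to 0.07, which covers every isocaloric trained array. The gap between the large and small subunit means stayed between -0.05 and 0.07 on every array.

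**Figure D2:**
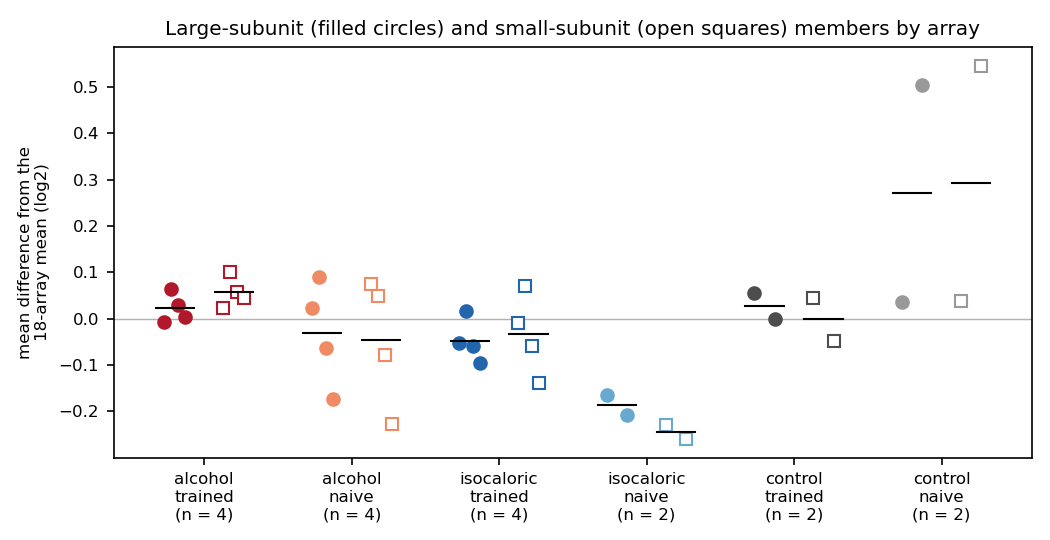
Mean difference from the 18-array mean (log2) of the 28 large-subunit members (filled circles) and 12 small-subunit members (open squares), 1 pair of points per array, with lines at the group means. The subunits lie side by side in each group, the isocaloric naive arrays are below 0, and control naive 2 stands alone at 0.50 and 0.55.

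The first question was whether ribosomal protein mRNA differed between alcohol and isocaloric diet, averaged over training. Rpsa, a small-subunit protein (gene ID 29236) also known as the laminin receptor, was the 1 member that passed the test. Its signal on the alcohol trained arrays was 1442, 1422, 1363 and 1423, and on the alcohol naive arrays it was 1274, 1510, 1372 and 1066. On the isocaloric trained arrays it was 1235, 1244, 1135 and 1124, and on the isocaloric naive arrays 911 and 907. Within either training state the 2 diets did not overlap, although alcohol naive 4 fell below every isocaloric trained array. Rpsa rose by 0.38 (log2, SE 0.08, limma adjusted p = 0.0218), with 8 of 8 alcohol arrays above the isocaloric mean of their training state. Its remaining 2 probe sets had differences of 0.02 and 0.18 that did not pass. The call was lost without isocaloric naive 1 or 2 (adjusted p = 0.111 and 0.118), without alcohol naive 3 (0.0506), without the 4 arrays high in the choroid plexus gene Ttr (0.112) and with the 3′ to 5′ Gapdh ratio, a sign of RNA quality, as a covariate (0.151).

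The other 39 members did not pass this comparison. With 1 of 40 members higher and 0 lower, the count stands beside 1.47% of all probe sets called higher in alcohol and 1.59% called lower. The median over the members was 0.14, against -0.02 over all probe sets, and it was 0.05 after quantile normalisation. Above 0 were 34 of 40 members and 45.5% of all probe sets. An unadjusted p under 0.05 was found for 19 members, beside 21.7% of all probe sets. By subunit the median was 0.14 for the large and 0.15 for the small. Next in order of p were Rpl34 at 0.20 (SE 0.06, adjusted p = 0.0763), the stalk base protein Rplp0 at 0.22 (SE 0.07, 0.0849), the zinc-finger protein Rpl37a at 0.30 (SE 0.10, 0.0898) and Rpl23, which also binds Mdm2, at 0.26 (SE 0.09, 0.0994). When the fit held only alcohol and isocaloric arrays, 7 members passed upward, namely Rpl13a, Rpl22, Rpl23, Rpl34, Rplp0, Rps16 and Rpsa, beside 3.08% of all probe sets called higher. Without alcohol naive 4, the lowest alcohol array, 4 passed upward, beside 2.02% of all probe sets. Beside these differences, the log2 Gapdh ratio was 0.26 in alcohol (SD 0.12, n = 8) and 0.13 in isocaloric arrays (SD 0.04, n = 6). With the Gapdh ratio as a covariate 0 members passed, beside 0.263% of all probe sets. The same ratio of actin did not differ in this way, at 0.40 (SD 0.16) and 0.41 (SD 0.08). That of hexokinase was lower in alcohol, at 0.96 (SD 0.21) against 1.06 (SD 0.12). The summed signal of 11 microglial markers (9 past the filter, none at 0) was also higher in alcohol, without overlap in either training state, at 1514 to 1677 against 1381 to 1498 in trained and 1463 to 1568 against 1327 to 1396 in naive rats. Its part in the member differences was not tested.

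Taken separately by training state, 0 members passed in trained rats (median 0.09, 3 with an unadjusted p under 0.05) and 0 in naive rats (median 0.17, 12 with an unadjusted p under 0.05). Over all probe sets, limma called 0.399% and 0.0735%, and 14.7% and 12.4% had an unadjusted p under 0.05. Rpsa differed by 0.25 (SE 0.10) in trained and by 0.51 (SE 0.13) in naive rats, neither passing. Rps6, the small-subunit protein phosphorylated by S6 kinase, had a median signal of 2465 in alcohol (range 2039 to 2556) and 2216 in isocaloric arrays (1994 to 2638). The ranges overlap, and the difference of 0.13 (SE 0.07, adjusted p = 0.256) did not pass. The paralogs Rpl7 and Rpl7l1 differed by 0.14 (SE 0.08) and 0.07 (SE 0.06), also without passing.

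**Figure D3:**
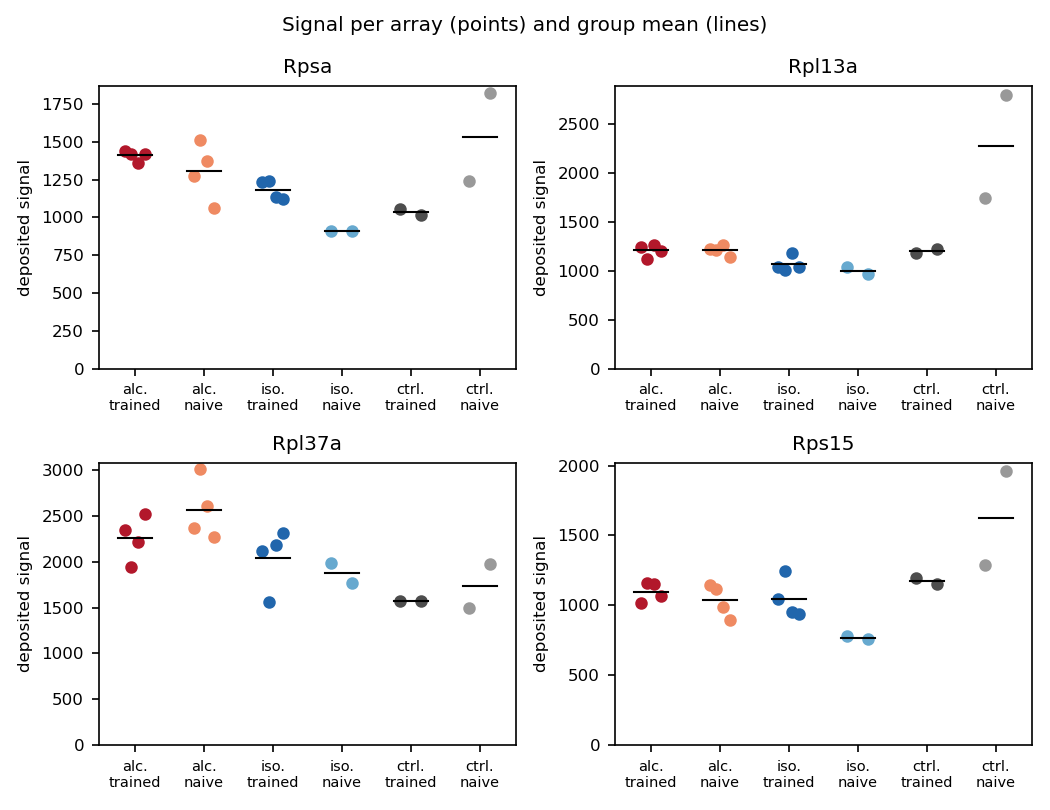
Deposited signal (linear scale from 0) of Rpsa, Rpl13a, Rpl37a and Rps15 in the 6 groups, 1 point per array with lines at the group means. Rpsa is lowest on the 2 isocaloric naive arrays (911 and 907), Rpl13a is at 1750 and 2801 on the control naive arrays and at most 1267 elsewhere, and Rpl37a is higher in the alcohol than in the control groups except where alcohol trained 2 (1945) lies under control naive 2 (1975).

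The second question was how alcohol and isocaloric rats compared with rats on the control diet. Both comparisons use the same 4 control arrays, so they are not independent of each other. In alcohol, 11 members were lower and 1 was higher than in control, beside 8.61% of all probe sets called lower and 11.3% called higher. In isocaloric, 16 members were lower and 0 higher, beside 2.80% and 4.24%. The member medians were -0.13 (34 of 40 below 0) and -0.30 (39 of 40 below 0), against -0.00 and 0.02 over all probe sets. Over all probe sets 49.9% and 55.6% were above 0. An unadjusted p under 0.05 was found for 18 and 32 members, beside 33.6% and 25.1% of all probe sets. Without control naive 2 the member medians were -0.027 (25 below 0) and -0.16 (36 below 0). In that fit 2 members were lower and 1 was higher in alcohol, beside 1.91% and 4.18% of all probe sets, and 2 were lower and 0 higher in isocaloric rats, beside 0.399% and 0.767%.

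Rpl13a, a large-subunit protein (gene ID 317646) also known as part of a complex that represses translation in interferon-treated cells, passed in both comparisons with and without that array. Its control signals were 1182 and 1219 in trained rats and 1750 and 2801 in naive rats. Alcohol arrays ranged from 1124 to 1267 with a median of 1215, and isocaloric arrays from 968 to 1179 with a median of 1036. The isocaloric arrays were thus all below every control array, though the nearest pair was 1179 and 1182, while the alcohol arrays overlapped with the control trained arrays. Rpl13a fell by 0.43 in alcohol (log2, SE 0.09, adjusted p = 0.00338) and by 0.66 in isocaloric rats (SE 0.10, 0.00111). With that array left out it fell by 0.26 (adjusted p = 0.0190) and by 0.49 (0.00200). Within training state, 8 alcohol arrays split into 5 below and 3 above the control mean, whereas 6 of 6 isocaloric arrays were below it. All 3 above it were trained. Alcohol trained arrays read 1124 to 1263, around the control trained signals. Alcohol naive arrays read 1139 to 1267, below both control naive signals. The averaged fall in alcohol thus came from naive rats, where without control naive 2 only control naive 1 is left.

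Rps15, a protein of the head of the small subunit (gene ID 29285), had control signals of 1198 and 1152 in trained and 1287 and 1962 in naive rats. Isocaloric trained arrays read 1043, 1244, 954 and 935, and isocaloric naive arrays 777 and 759. Only isocaloric trained 2, at 1244, reached the control range. Rps15 fell by 0.61 in isocaloric (SE 0.11, adjusted p = 0.00472) and by 0.36 in alcohol rats (SE 0.10, 0.0178). When control naive 2 was left out, the isocaloric call held at -0.46 (adjusted p = 0.0255) and the alcohol call did not (-0.21).

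Rpl37a (gene ID 100361520) went the other way. Its symbol is that of the annotation and did not equal the RefSeq symbol for this gene ID. Its start site above was matched by symbol. Its signal was 1575 and 1572 on the control trained, 1495 and 1975 on the control naive arrays, and 1945 to 3008 (median 2359) on the alcohol arrays. One control array, naive 2, thus lay within the alcohol range. Rpl37a rose by 0.54 in alcohol against control (SE 0.11, adjusted p = 0.00252, 8 of 8 arrays), and by 0.64 without control naive 2 (0.00346). It passed in all 23 alternatives run. Against isocaloric rats it had a difference of 0.30 and in isocaloric against control one of 0.24 (SE 0.11), neither passing.

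Of the large subunit, the members lower in alcohol than in control were Rpl13a, Rpl14, Rpl21, Rpl23a, Rpl24, Rpl27, Rpl27a and Rpl35a. Those lower in isocaloric rats were Rpl12, Rpl13a, Rpl14, Rpl19, Rpl22, Rpl24, Rpl26, Rpl27, Rpl27a, Rpl35, Rpl35a, Rpl41, Rpl7 and Rplp0. Rpl24, which reaches across to the small subunit, read 813 and 900 on the control trained, 711 and 1137 on the control naive, and 569 to 718 (median 632) on the alcohol arrays. Control naive 1 alone lay within the alcohol range. Rpl24 fell by 0.45 in alcohol (SE 0.10, adjusted p = 0.00410), and by 0.28 without control naive 2 (0.0368). In isocaloric rats it fell by 0.36 (adjusted p = 0.0435), a call lost without that array. Of the proteins around the exit of the peptide tunnel, Rpl23a, at which the signal recognition particle docks, had -0.31 (adjusted p = 0.0281) in alcohol and -0.13 (0.437) in isocaloric rats, and Rpl26 had -0.25 (0.0559) and -0.36 (0.0317). Rpl35, also there, had -0.14 (0.342) and -0.38 (0.0413). Without control naive 2 the calls of Rpl23a in alcohol (-0.16, adjusted p = 0.262) and of Rpl26 (-0.22, 0.233) and Rpl35 (-0.26, 0.285) in isocaloric rats were lost. Between alcohol and isocaloric rats none of these 3 genes passed (-0.18, 0.11 and 0.24).

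At the stalk, where elongation factors bind, Rplp0 had a signal of 845 and 847 on the isocaloric naive arrays, 1043 to 1105 on the isocaloric trained arrays and 1050 to 1508 on the control arrays. It fell by 0.34 in isocaloric rats (SE 0.08, adjusted p = 0.0213) and had -0.12 (0.271) in alcohol rats. Its neighbour at the stalk base, Rpl12, fell by 0.41 (SE 0.10, 0.0257) in isocaloric rats and had -0.23 (0.105) in alcohol rats. Both isocaloric calls were lost without control naive 2. Rpl5 and Rpl11, which carry the 5S rRNA into the ribosome and can bind Mdm2, did not pass in either, with -0.10 and -0.10 in alcohol and -0.28 and -0.22 in isocaloric rats.

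Of the small subunit, Rps15, Rps15a and Rps24 were lower in alcohol than in control, and Rps15 and Rps3a were lower in isocaloric rats. Rps24, a gene mutated in Diamond-Blackfan anaemia, read 1815 and 1716 on the control trained and 1800 and 2925 on the control naive arrays, against 1052 to 1744 (median 1492) in alcohol. The lowest value was that of alcohol trained 4, and only 1716 of the control values lay in the alcohol range. It fell by 0.44 in alcohol (SE 0.12, adjusted p = 0.0161) and had -0.43 (SE 0.13, 0.0525) in isocaloric rats. Rps15a fell by 0.40 in alcohol (SE 0.10, 0.00973) and had -0.30 (0.0849) in isocaloric rats. Both alcohol calls were lost without control naive 2, at -0.27 for Rps24 (adjusted p = 0.170) and -0.24 for Rps15a (0.102), as was the isocaloric call of Rps3a (-0.34 with the array, -0.19 without it). Rpsa had 0.11 in alcohol (adjusted p = 0.404) and -0.27 in isocaloric rats (0.0967), while 1 of its other probe sets fell by 0.37 in isocaloric rats (0.0271). Rps6 passed in neither, with -0.10 and -0.24.

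**Figure D4:**
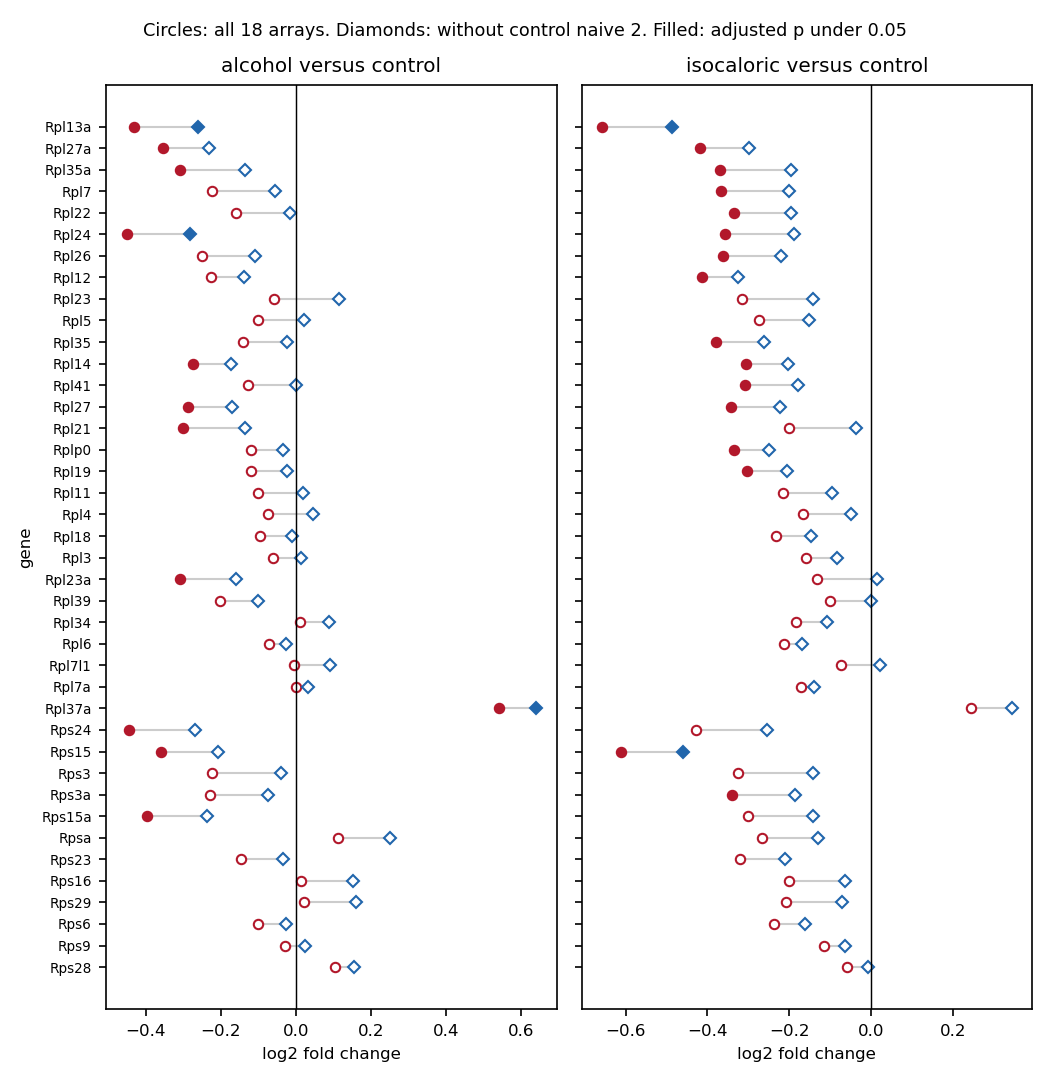
Log2 fold change of each of the 40 members in alcohol against control (left) and isocaloric against control (right), from all 18 arrays (circles) and without control naive 2 (diamonds), filled where the adjusted p was under 0.05. Every diamond lies to the right of its circle, and the filled diamonds are Rpl13a, Rpl24 and Rpl37a on the left and Rpl13a and Rps15 on the right.

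The number of lower members depended on single arrays in both directions. Leaving out control trained 1 left 2 lower members in alcohol and 2 in isocaloric rats, beside 3.67% and 0.620% of all probe sets called lower. Leaving out control trained 2 left 6 and 2, beside 3.91% and 0.746%. Leaving out control naive 1 gave 24 and 33, beside 14.0% and 10.1%. In isocaloric rats 2 were left without isocaloric naive 1 and 2 without isocaloric naive 2, beside 0.893% and 0.284%. In each fit that left out a control array, Rpl37a was the 1 higher member in alcohol. Control arrays also differed in other measures: the summed signal of 11 endothelial and mural markers (6 past the filter, none at 0) was 644 to 727 in control and 1048 to 1244 on all other arrays, and the log2 3′ to 5′ actin ratio was 0.64 (SD 0.09, n = 4) in control, 0.40 (SD 0.16, n = 8) in alcohol and 0.41 (SD 0.08, n = 6) in isocaloric arrays. Their part in the member differences was not tested. Values of control naive 1 and control trained 2 were written with fewer digits than those of the other arrays, and without this pair 23 and 34 members were lower, beside 10.9% and 7.45% of all probe sets, in a fit where each control group is 1 array.

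The third question was whether training changed these mRNAs. Averaged over diet, 0 members passed (2 with an unadjusted p under 0.05), beside 0.0105% of all probe sets called by limma and 5.95% with an unadjusted p under 0.05. The median was -0.00, with 19 members above and 21 below 0, and without control naive 2 it was 0.07, with 35 above 0. The smallest p-values belonged to Rpl13a at -0.26 (adjusted p = 0.756), Rps28 at 0.13 (0.780), Rpl23a at 0.13 (0.884), Rps3, which lines the mRNA entry channel, at -0.13 (0.885) and Rps29 at 0.16 (0.905). Without control naive 1, where control naive 2 stands alone for its group, Rpl13a had -0.38 and Rps3 had -0.26. Without control naive 2 they had -0.15 and -0.01.

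By diet, 0 members passed in alcohol rats (median 0.06, 4 with an unadjusted p under 0.05) and 0 in isocaloric rats (median 0.14, 10 with an unadjusted p under 0.05), where limma called 0 probe sets in all and 8.59% and 7.12% of probe sets had an unadjusted p under 0.05. In isocaloric rats 35 of 40 members were above 0 in trained against naive, including all 12 of the small subunit, beside 46.4% of all probe sets. In control rats the median was -0.25 and 38 of 40 members were below 0, while 52.8% of all probe sets were above 0. There 16 members had an unadjusted p under 0.05, beside 10.9% of all probe sets. Without control naive 2 the median was -0.026 and 23 members were below 0. With all arrays 1 member passed, beside 0.0210% of all probe sets called lower. This was Rpl13a, whose control trained signals of 1182 and 1219 were both below the control naive signals of 1750 and 2801. It fell by 0.88 (SE 0.14, adjusted p = 0.0436), and by 0.54 without control naive 2 (0.0430, where 0.179% of all probe sets were called lower). The call was lost without either control trained array (0.325 and 0.138).

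The training effect was then compared between diets. Between alcohol and isocaloric rats it differed for 0 members (0 also at an unadjusted p under 0.05), beside 0 of all probe sets. Between control and isocaloric rats it differed for 1 member, Rpl13a, by -0.97 (SE 0.19, adjusted p = 0.0429), beside 0.0735% of all probe sets called lower. Without control naive 2 it differed by -0.63. The call over all 18 arrays was lost in 13 of 21 alternatives. Rpsa came near it at -0.91 (SE 0.20, 0.0617), as did Rpl22 at -0.75 (0.0617). Here 23 members had an unadjusted p under 0.05, beside 13.9% of all probe sets. Between control and alcohol rats 0 members passed, beside 0.0315% of all probe sets. There 18 had an unadjusted p under 0.05, beside 13.1% of all probe sets. Rpl13a had -0.88 (0.0654), and -0.54 without control naive 2.

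The probe sets with several symbols, left out of the member counts, were read in the same fit. Of 34, all past the filter, 1 was higher in alcohol than in isocaloric rats (median 0.15), beside 1.47% of all probe sets. In alcohol against control 1 was higher and 14 lower (median -0.18), beside 11.3% and 8.61%. In isocaloric rats 20 were lower than in control (median -0.37), beside 2.80%. Without control naive 2 the medians of the last 2 comparisons were -0.06 and -0.22. Most of their calls were lost there, and fewer of all probe sets were called too. With training 0 passed, beside 0.0105% of all probe sets, and 1 had an unadjusted p under 0.05, beside 5.95%.

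Related gene lists were read from the same fit. The mitochondrial ribosome, a separate ribosome that translates the genes of mitochondrial DNA, had 69 members past the filter, of which 1 was higher and 9 lower in alcohol than in control, beside 11.3% and 8.61% of all probe sets. In isocaloric rats 1 was higher and 11 lower, beside 4.24% and 2.80%. The higher one was Mrps25 in both, at 0.60 and 0.48. Examples of lower ones were Mrps17 at -0.36 and Mrpl16 at -0.38 in alcohol, and Mrps24 at -0.40 and Mrpl33 at -0.41 in isocaloric rats. Its medians were -0.14 and -0.16. Between alcohol and isocaloric rats its median was 0.05 and 0 passed, beside 1.47% of all probe sets called higher and 1.59% lower. There 11 had an unadjusted p under 0.05, beside 21.7% of all probe sets. Without control naive 2 its medians against control were -0.07 in alcohol and -0.12 in isocaloric rats. Most of its calls were lost there, and fewer of all probe sets were called too.

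Of 35 genes of ribosome assembly past the filter, 2 were higher and 4 lower in alcohol than in control, where all probe sets gave 11.3% and 8.61%. The higher ones were the pseudouridine synthase Dkc1 at 0.39 and the large-subunit assembly factor Pes1 at 0.47. Of the lower ones, Nop10, which acts in the same snoRNP as Dkc1, fell by 0.34 and the small-subunit assembly factor Bysl fell by 0.41. In isocaloric rats Nop10 alone passed, with -0.37, beside 2.80% of all probe sets called lower. Without control naive 2, 0 genes of this list passed against control. Of 25 genes from mTORC1 to S6 kinase past the filter, Rragc, a GTPase that recruits mTORC1 to the lysosome, rose by 0.27 in alcohol against isocaloric rats (adjusted p = 0.0446). It was the 1 gene of the list called there, beside 1.47% of all probe sets called higher. Against control, 2 were higher and 3 lower in alcohol, also beside 11.3% and 8.61% of all probe sets. Among the higher was the mTORC1 inhibitor Tsc2 (0.23), and the lower were the kinase Pdpk1 (-0.21), the cap-binding protein Eif4e (-0.24) and the lysosomal scaffold Lamtor4 (-0.30). Lamtor4 (-0.42) was also lower in isocaloric rats, beside 2.80% of all probe sets. Without control naive 2 the calls of this list against control were lost.

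Of 19 other genes past the filter whose mRNAs carry a TOP tract, 1 was higher in alcohol than in isocaloric rats, beside 1.47% of all probe sets. Against control 3 were higher in alcohol and 2 were lower in isocaloric rats, beside 11.3% and 2.80%. The elongation factor Eef2 rose by 0.25 in alcohol against isocaloric rats (adjusted p = 0.0268) and by 0.26 against control (0.00895). Vim (0.61) and Eef1a2 (0.38) were also higher in alcohol than in control, and the initiation factor subunits Eif3f (-0.33) and Eif3l (-0.35) were lower in isocaloric rats than in control. Eef2 was the 1 gene of the list still called against control, in alcohol, without control naive 2. The medians of this list were 0.11 for alcohol against isocaloric, -0.09 for alcohol against control and -0.14 for isocaloric against control. Those of the ribosomal proteins were 0.14, -0.13 and -0.30. With training 0 members of these lists passed, beside 0.0105% of all probe sets.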

How the data were processed

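The authors deposited a single intensity for each probe set on each array, not log-transformed, in a table of 15923 probe sets. The submitters' processing notes name MAS5 (the summary method of Affymetrix) for 2 samples. For the remaining samples the method was not given in the sources used here. Because arrays share a scale, a change in total RNA would not be seen. Values were analysed as log2(value + 6.06), where 6.06 is the 10th percentile of the table, which shrinks fold changes at low signal. Probe sets with a mean under the 40th percentile and 57 Affymetrix controls were left out, and 9520 were tested with limma 3.58.1 in R 4.3.3 (lmFit on 6 group means, eBayes with a trend, 12 residual degrees of freedom). Diet effects averaged trained and naive with equal weight, and training effects averaged the 3 diets. Benjamini-Hochberg adjustment covered all tested probe sets, with a threshold of 0.05. The scripts were tested on simulated data.

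Groups came from the sample descriptions. Members, lists and tests were chosen with earlier results of these data known, and the hippocampal markers and the training comparisons of control with alcohol and isocaloric rats were added after seeing the data. Named were members past the threshold, the 5 with the smallest p where fewer than 3 passed, Rpsa, Rplp0, Rps6 and paralog pairs, and at most 4 genes per other list and comparison. The rule took at most 12 members per comparison and direction. Rpl27, Rpl35a, Rpl41 and Rps3a in isocaloric rats, and Rpl5 and Rpl11, were added after their values were seen. The symbol of 42 members equalled that of RefSeq for their gene ID, and Rpl37a and Rps9 kept the annotation's. Sequences were read from RefSeq promoters of GRCr8 with Python 3.11.15, where 39 members matched and Rpl23a, Rpl27, Rpl30, Rpl7 and Rps29 did not. The number of arrays limits the precision. Alternatives were the constant, the filter, quantile normalisation, centring, the samples fitted, a replicate block, the Gapdh ratio, and arrays left out.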

Additional observations from a re-analysis of the deposited data

Results flagged for a closer look

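Within groups of 4 arrays, 7 of 90 sets of values had 1 array far from the other 3 by Dixon's ratio, where chance marks about 1 in 20. Low arrays were alcohol naive 4 for Rpl12 (931, others 1156 to 1197) and for Rpl22 (783, others 858 to 873), alcohol trained 2 for Rpl14 (765, others 850 to 867) and isocaloric trained 2 for Rpl41 (1494, others 1566 to 1578). High arrays were alcohol trained 3 for Rpl22 (968, others 896 to 906), alcohol naive 1 for Rps15a (2069, others 1590 to 1672) and alcohol naive 2 for Rps24 (1744, others 1419 to 1450). Alcohol naive 4 was the lowest of all 18 arrays for 7 of 40 members, beside 2.97% of all probe sets.

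The effect of training on Rpl13a differed between control and isocaloric rats by -0.97 (log2, SE 0.19, limma adjusted p = 0.0429), a test of the difference itself with 2 arrays in each control group.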

How the results depend on the processing

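No value that passed its test changed sign under any alternative run. Counts of members that passed, in either direction, were as follows where they moved by more than 1.5 times. For isocaloric against control (16) they were 6 with no filter, 10 with quantile normalisation (median -0.17), 3 with only the groups compared, 7 with the Gapdh ratio as covariate, 1 when the arrays high in Ttr were left out, and 34 without the 2 arrays with fewer digits (median -0.44). For alcohol against control (12) they were 7 with only the groups compared, 3 without the arrays high in Ttr and 24 without the 2 arrays with fewer digits (median -0.29). For alcohol against isocaloric (1 higher, beside 140 of all probe sets), 7 were higher with only the groups compared, beside 293. With the Gapdh covariate 0 passed, beside 13 higher and 12 lower of all probe sets. When the arrays high in Ttr were left out, Rpsa had 0.33 and was not called. For training in all diets (0), Rpl13a had -0.38 without the 2 arrays with fewer digits. For training in control (1 lower, beside 2 of all probe sets), 0 passed with no filter or with only the groups compared, beside 0 of all probe sets. More passed without those 2 arrays and fewer without the arrays high in Ttr, as over all probe sets. For the training difference of control and alcohol (0), 1 was lower with the filter at the 60th percentile, beside 7 of all probe sets. More passed without those 2 arrays, as over all probe sets. For that of control and isocaloric (1), 3 passed with quantile normalisation, 14 without those 2 arrays, and 0 with no filter, median centring, only the groups compared or without the arrays high in Ttr. Leaving out 1 array at a time gave 0 to 4 members for alcohol against isocaloric, 3 to 25 for alcohol against control (median -0.26 to -0.027), 2 to 33 for isocaloric against control (median -0.41 to -0.16), 0 to 2 for training, 0 to 20 for training in control, and 0 to 16 and 0 to 25 for the training differences of control with alcohol and with isocaloric. A lone array in a group is assumed to vary like the other groups.

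Replicate numbers showed no pairing on average. Deviations of same-numbered arrays from their group means correlated at -0.03 on average over 36 pairs (-0.23 to 0.13), against 0.01 over 96 other pairs. Because deviations within a group sum to 0, these averages are tied to each other. They cannot tell whether some of the pairs are linked. With the number as a replicate block, 1 member was higher for alcohol against isocaloric, beside 107 of all 9520 probe sets. For alcohol against control 1 was higher and 3 lower, beside 683 and 455. For isocaloric against control 8 were lower, beside 161. For training and for training in control 0 passed, beside 0 of all probe sets. With 2 control arrays per training state, the control comparisons rest on few arrays. Signal over background was not measured apart from the filter.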
